A study of Mus musculus with 7 samples.

Results

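The mouse cluster of miR-143 and miR-145 was followed here through the 3 arms of its hairpins that the array carried: miR-143-3p, miR-145a-5p and miR-145a-3p, of 696 mouse miRNAs on the array. They were chosen by name, as every arm of the hairpins miR-143 and miR-145a, and that rule uses no measured value, although the cluster was picked for description with earlier results of these data known. The measurements came from 1-colour Agilent miRNA arrays of soft tissue sarcoma cells of p53 knocked out mice. Control primary cells (2 arrays) carried a non-target shRNA. Rb-depleted primary cells (2 arrays) carried an Rb shRNA, named shRb1 in the labels. Rb-depleted secondary cells (3 arrays) carried the same Rb shRNA and had been retrieved from spheres grown without serum in methylcellulose with B27, EGF and bFGF, then passaged once as a monolayer. All 3 groups shared the loss of p53, a transduced shRNA and puromycin selection. No array held control cells taken through sphere culture, so the passage through spheres cannot be told apart from its combination with Rb depletion. The loss of Rb rested on 1 shRNA sequence, and a miRNA array holds no measurement of Rb1 itself. The labels do not say whether replicates were separate cultures, so the p-values measure the spread between these arrays, which may be technical.

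The cluster holds 2 hairpins that are cut from a shared primary transcript, each giving a mature miRNA that lowers the mRNAs and proteins it pairs with. It is best known from smooth muscle, where both miRNAs are abundant and favour the contractile over the proliferating state, with Klf4 and Klf5 among the targets of miR-145 and Elk1 among those of miR-143. Fibroblasts and other mesenchymal cells express the cluster as well, while epithelial cells hold little of it. In the GENCODE annotation of NCBIM37, the genome build named in the scanner files, Mir145 (ENSMUSG00000065592) lay on chromosome 18 at 61807470 to 61807557 and Mir143 (ENSMUSG00000065445) at 61808850 to 61808912, both on the minus strand. The hairpins were 1292 bases apart, and that annotation placed neither inside another gene. In the newer RefSeq annotation, both lay inside the long non-coding RNA gene Carmn, the host transcript of the cluster.

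The arrays detected 258 to 287 mouse miRNAs each, and 252 of these are in the authors' table of quantile-normalized log2 values, which includes miR-143-3p and miR-145a-5p. The total gene signal, the brightness of a miRNA summed over its probes in intensity units, added up to 432616 to 550498 over the 252 miRNAs. Without normalization the median miRNA differed from control by -0.26 on the log2 scale in Rb-depleted primary cells and by -0.46 in secondary cells, and by -0.18 from the former to the latter. Normalized differences are relative to these shifts. The 4 primary arrays and replicate 1 of the secondary cells lay on 1 slide, and replicates 2 and 3 of the secondary cells lay on another. Of 13 arms of epithelial miRNAs on the array (the miR-200 family, miR-141, miR-429, miR-203, miR-205 and miR-375), 0 were detected on any array, whereas 15 of 15 arms of a mesenchymal list (miR-199, miR-214, miR-21, miR-22, miR-29a, miR-29b and miR-140) were detected on 7 of 7.

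miR-143-3p, the main product of the miR-143 hairpin, was the brighter of the members on each array. Its total gene signal was 1415 and 1560 intensity units on the control arrays, 1222 and 1010 on the Rb-depleted primary arrays, and 1420, 1137 and 1692 on the secondary arrays. It ranked 47th on both control arrays, 48th and 50th on the Rb-depleted primary arrays, and 40th, 44th and 34th on the secondary arrays among detected miRNAs, so its place in the order was highest in the secondary cells. Its 20 spots per array, 10 for each of 2 probes, were all well above background (140 of 140), and 0 were saturated. The software flagged 9 of the 140 as outliers. Among the remaining spots of a probe the coefficient of variation had a median of 11.1%, with a range of 2.09% to 21.4%.

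miR-145a-5p, the main product of the miR-145a hairpin, was detected on 7 of 7 arrays at a lower brightness. Its total gene signal was 152.4 and 135.3 with the non-target shRNA, 120.6 and 109.2 with the Rb shRNA before sphere culture, and 98.1, 91.5 and 115.5 after it. Before normalization both control arrays were thus brighter than the 5 Rb-depleted arrays, and primary and secondary Rb-depleted cells overlapped. How many other miRNAs shared this order was not counted, and the median miRNA was itself dimmer than in control. All 140 of its spots were well above background as well. With 14 flagged outlier spots left out, the median coefficient of variation was 7.63%. The dimmest miRNA called detected had a signal of 3.38 to 5.37, depending on the array, far under both miRNAs.

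miR-145a-3p, the opposite arm of the miR-145a hairpin, was detected on 0 of 7 arrays. Its total gene signal is listed at 0.1, the value the software gives to undetected miRNAs. None of its 140 spots (0 of 140) was well above background, and their signals ran from -6.09 to 13.7. The arrays therefore gave 1 quantified arm for each hairpin. Brightness also depends on how well a probe binds, so the gap between miR-143-3p and miR-145a-5p is not a ratio of molecules, and only its change between arrays is read here.

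**Figure D1:**
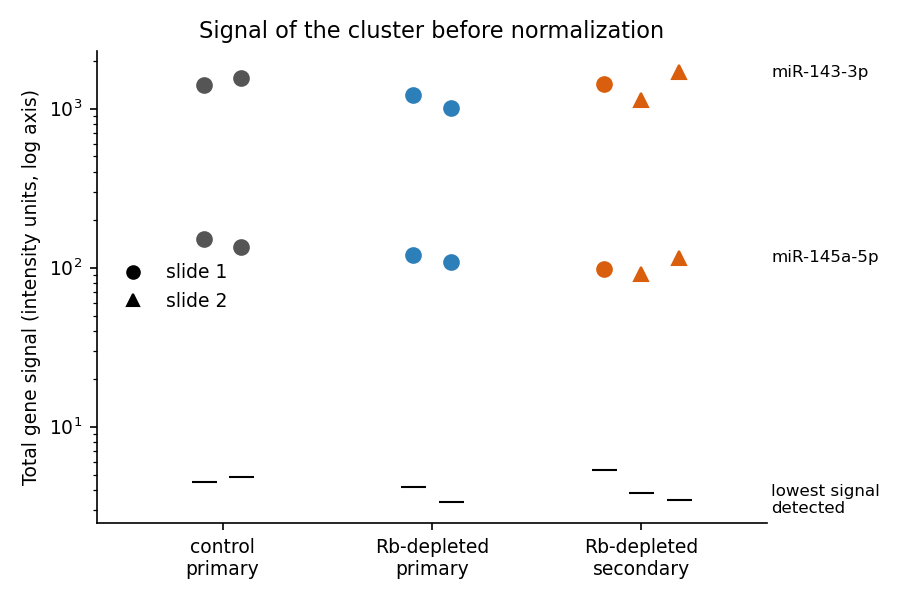
Total gene signal (intensity units, log axis, before normalization) of miR-143-3p and miR-145a-5p on each of the 7 arrays, 1 point per array, by group and slide, with short bars for the dimmest miRNA called detected on that array. miR-143-3p lies between 1010 and 1692 and miR-145a-5p between 91.5 and 152.4, both far above the bars at 3.38 to 5.37.

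After normalization, miR-143-3p stood lowest in Rb-depleted primary cells and highest in secondary cells. Its deposited log2 value was 10.31 for both control replicates, 10.17 and 10.05 for the Rb-depleted primary replicates, and 10.73, 10.47 and 10.98 for the secondary replicates. The 3 groups did not overlap. The control values are equal because quantile normalization assigned them the same rank, as it did for 109 of 1260 pairs of replicate values in the table, while their signals before normalization differed. Across the 3 groups, miR-143-3p passed limma's moderated F-test at the threshold of 0.1 (adjusted p = 0.0651), as did 43.3% of the 252 miRNAs.

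Between secondary and primary Rb-depleted cells, miR-143-3p was higher by 0.62 on the log2 scale (SE 0.16, 95% interval 0.23 to 1.01, n = 3 and 2), a fold of 1.54 with an interval of 1.17 to 2.02. The adjusted p was 0.0465 (limma, Benjamini-Hochberg over the 252 miRNAs). In this comparison 20.2% of the 252 passed the threshold of 0.05, 12.7% being higher and 7.54% lower in secondary cells, and 27% of the 252 were higher on all 3 secondary arrays than on both Rb-depleted primary arrays. The call was close to the threshold and was lost in 12 of 14 alternatives, with the same direction in each. By limma's adjusted p it was lost without normalization (0.33, adjusted p = 0.251) and with slide as a term (0.63, adjusted p = 0.186), and lost when any 1 of 6 arrays was left out (0.49 to 0.68, adjusted p = 0.0728 to 0.206). It was kept without replicate 2 of the secondary cells (0.75, adjusted p = 0.0194 by limma).

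Against control cells, miR-143-3p was higher in secondary cells by 0.41 on the deposited log2 scale (SE 0.16, 95% interval 0.02 to 0.80), which did not pass the test (limma adjusted p = 0.126, or 0.0716 by Dunnett's adjustment for 2 comparisons with control in the same fit). All 3 secondary arrays lay above both control arrays, as they did for 29.8% of the miRNAs. Without normalization between arrays the direction turned, to -0.09 (adjusted p = 0.719), since the secondary signals of 1137 to 1692 spanned the control signals of 1415 and 1560. Without replicate 2 of the secondary cells, the normalized difference was 0.54 and passed (limma adjusted p = 0.0316). In this comparison 22.6% of the miRNAs passed, 13.1% higher and 9.52% lower.

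Between Rb-depleted primary and control cells, miR-143-3p differed by -0.21 on the log2 scale (SE 0.17, 95% interval -0.64 to 0.22, limma adjusted p = 0.484), where 1.59% of the miRNAs passed, 0.397% higher and 1.19% lower. Both Rb-depleted arrays lay below both control arrays, as they did for 26.6% of the miRNAs. The order of the means was thus Rb-depleted primary (10.11 ± 0.08, SD, n = 2), control primary (10.31, n = 2) and Rb-depleted secondary (10.73 ± 0.26, n = 3), in which neither pair of neighbours differed by the test and the ends did. The same arrangement of arrays, with Rb-depleted primary below and secondary above both controls, was found for 11 of the 252 miRNAs (4.37%).

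miR-145a-5p passed none of these tests. Its deposited log2 value was 7.01 and 6.74 for the control replicates, 6.88 and 6.92 for the Rb-depleted primary replicates, and 6.67, 6.79 and 7.01 for the secondary replicates. The 3 groups overlapped, and the F-test over them gave an adjusted p of 0.85 (limma). Rb-depleted primary cells differed from control by 0.03 on the log2 scale (SE 0.15, 95% interval -0.34 to 0.40, limma adjusted p = 0.943). The difference between secondary and control cells was -0.05 (SE 0.13, 95% interval -0.39 to 0.28, limma adjusted p = 0.802). The difference between secondary and Rb-depleted primary cells was -0.08 (SE 0.13, 95% interval -0.42 to 0.26, limma adjusted p = 0.712). These intervals span folds of 0.75 to 1.32, so changes within that range are not excluded by these arrays. The order of the means was Rb-depleted secondary (6.82 ± 0.17, SD, n = 3), control primary (6.87 ± 0.19, n = 2) and Rb-depleted primary (6.90 ± 0.03, n = 2), with no pair told apart.

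The direction of these small differences in miR-145a-5p moved with the scaling. Without normalization, the Rb-depleted primary cells were lower than control by 0.32 on the log2 scale (-0.32, limma adjusted p = 0.251) and the secondary cells by 0.50 (-0.50, limma adjusted p = 0.0329), the latter a call that normalized values did not give. The median miRNA was itself lower by a similar amount in secondary cells, at -0.46. In that comparison without normalization 114 of the 252 miRNAs passed, 5 of them higher.

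**Figure D2:**
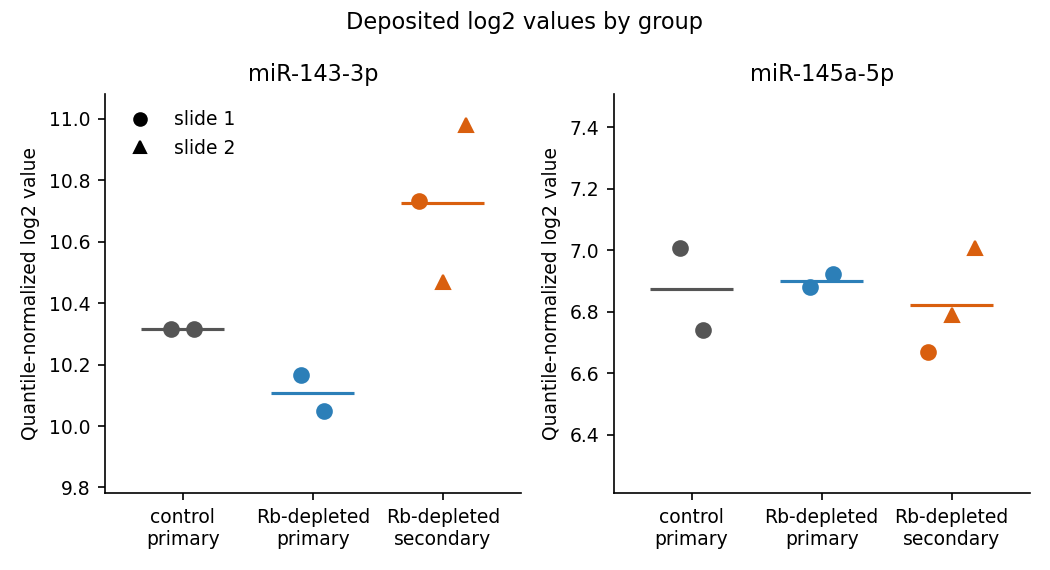
Deposited quantile-normalized log2 values of miR-143-3p (left) and miR-145a-5p (right), 1 point per array, with the group mean as a line and the slide as the shape of the point. The miR-143-3p groups do not overlap (10.05 to 10.17, 10.31, and 10.47 to 10.98), while the miR-145a-5p groups share the range of 6.67 to 7.01.

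**Figure D3:**
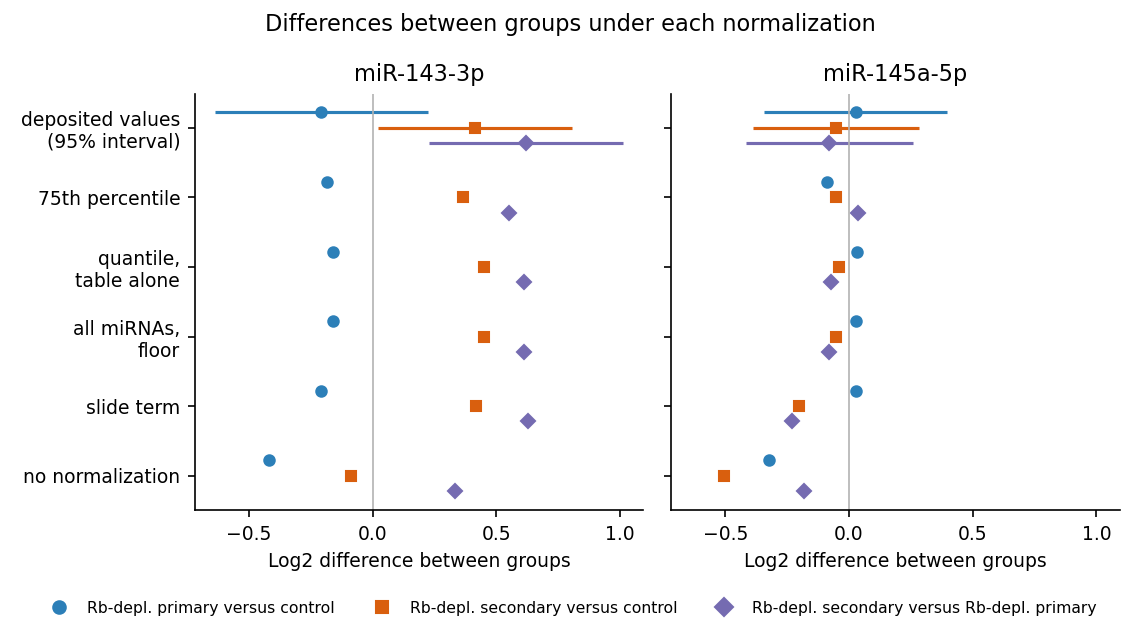
Log2 differences between groups for miR-143-3p (left) and miR-145a-5p (right) from the deposited values, with 95% intervals, and under 5 alternatives without intervals. The difference between secondary and Rb-depleted primary cells in miR-143-3p lies between 0.33 and 0.63 in these fits, whereas that between secondary and control cells turns to -0.09 without normalization.

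The slide moved with part of the secondary group. On the slide that held all primary arrays, the 1 secondary array (replicate 1) had a miR-143-3p value of 10.73, against 10.05 to 10.31 for the 4 primary arrays, and a miR-145a-5p value of 6.67, against 6.74 to 7.01. The secondary array nearest to the controls in miR-143-3p (replicate 2, 10.47) and the farthest (replicate 3, 10.98) shared the other slide. With slide as a term, the miR-143-3p difference between secondary and Rb-depleted primary cells was 0.63 and that of miR-145a-5p was -0.23, with 1 array carrying the comparison within a slide.

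Since both hairpins come from a shared transcript, the gap between their products was also followed within each array, where any factor common to the whole array drops out. The deposited log2 value of miR-143-3p minus that of miR-145a-5p was 3.31 and 3.57 for the control replicates, 3.28 and 3.13 on the Rb-depleted primary arrays, and 4.06, 3.68 and 3.97 on the secondary arrays. The gap was wider on all 3 secondary arrays than on the 4 primary arrays. Gaps between other pairs of miRNAs were not computed. Its mean was 3.44 ± 0.19 (SD, n = 2) for control, 3.21 ± 0.11 (n = 2) for Rb-depleted primary and 3.90 ± 0.20 (n = 3) for secondary cells.

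The gap differed by 0.70 between secondary and Rb-depleted primary cells (exact permutation test over arrays, two-sided, p = 0.1) and by 0.46 between secondary and control cells (exact permutation p = 0.2). Rb-depleted primary cells differed in the gap by -0.23 from control (exact permutation p = 0.3333). The smallest p of this test is 0.1 with 3 arrays against 2 and 0.3333 with 2 against 2, so it could not reach 0.05 here, and the gap was tested by no other means. The gap also rests on the same values as the tests of miR-143-3p and is not separate evidence.

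Without normalization, miR-143-3p was 9.29 and 11.5 times as bright as miR-145a-5p on the control arrays, 10.1 and 9.25 times on the Rb-depleted primary arrays, and 14.5, 12.4 and 14.6 times on the secondary arrays. The secondary arrays again stood above the 4 others, while control and Rb-depleted primary arrays overlapped. On the log2 scale, the difference was then 0.51 between secondary and Rb-depleted primary cells (exact permutation p = 0.1), 0.42 between secondary and control cells (exact permutation p = 0.1) and -0.10 between Rb-depleted primary and control cells (exact permutation p = 0.6667).

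**Figure D4:**
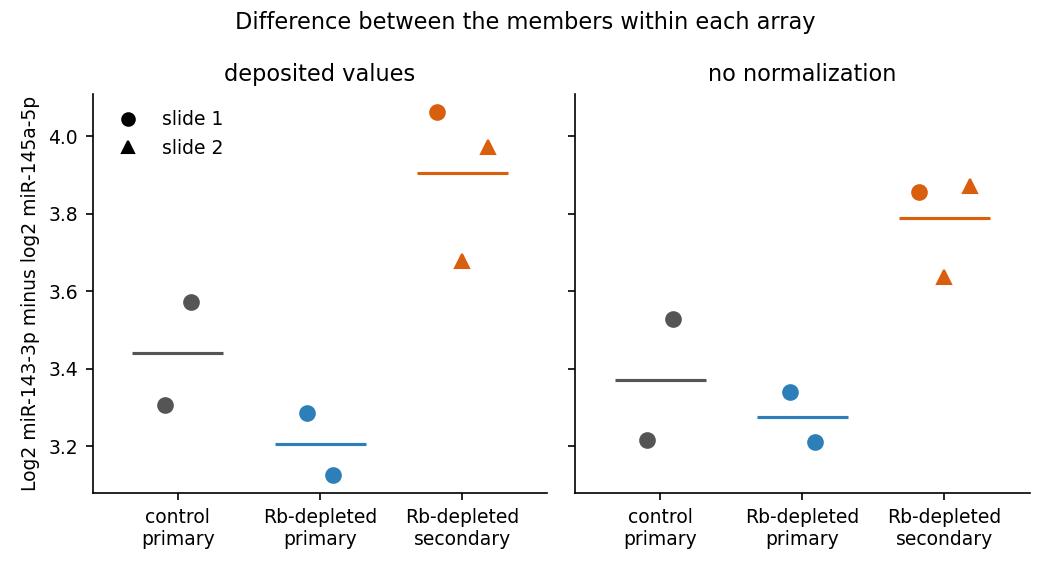
Log2 value of miR-143-3p minus log2 value of miR-145a-5p on each array, from the deposited values (left) and from the total gene signal without normalization (right), 1 point per array, with group means as lines and slides as shapes. The 3 secondary arrays lie highest in both panels, at 3.68 to 4.06 and at 3.64 to 3.87.

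Each miRNA was read by 2 probes, and these gave the gap separately. The second probe was the brighter of the pair on every array, by 0.47 to 0.66 on the log2 scale for miR-143-3p and by 0.82 to 0.96 for miR-145a-5p. The 4 ways of setting a miR-143-3p probe against a miR-145a-5p probe, without normalization, put the gap of secondary cells 0.48 to 0.54 above that of Rb-depleted primary cells. They put it 0.33 to 0.50 above that of control cells. The direction was thus the same with each pair of probes, with exact permutation p-values of 0.1 to 0.3, of which 0.1 is the smallest possible.

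The values of miR-143-3p and miR-145a-5p hardly moved together across the 7 arrays. Pearson's r between their deposited log2 values was -0.05, and 140 of the 251 other miRNAs in the table had a higher r with miR-143-3p than miR-145a-5p had. Without normalization, where all miRNAs share the brightness of their array, r was 0.41. The 7 arrays fall into 3 groups and lie on 2 slides, so these correlations are descriptions.

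The 5 miRNAs with the highest Pearson's r to miR-143-3p over the 7 arrays were miR-196a-5p (0.977), miR-152-3p (0.963), miR-101b-3p (0.955), miR-23b-3p (0.953) and miR-148a-3p (0.952). Mature sequences from RefSeq (GRCm38.p6) are given for 4 of them to show which share a seed, bases 2 to 8 from the 5′ end, in capitals.
miR-196a-5p: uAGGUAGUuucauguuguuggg
miR-152-3p: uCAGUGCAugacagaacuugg
miR-101b-3p: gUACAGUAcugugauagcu
miR-148a-3p: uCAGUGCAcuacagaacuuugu

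miR-152-3p and miR-148a-3p, members of one family encoded on different chromosomes, have the same seed. miR-196a-5p, whose hairpins lie in the Hox clusters, was at 3.51 and 3.25 for control cells, 2.26 and 2.22 on the Rb-depleted primary arrays, and 6.02, 4.44 and 6.30 on the secondary arrays. These log2 values follow the order of miR-143-3p over a wider span, which reaches down to dim signals. The total gene signal of miR-196a-5p was 10.4 and 8.60 on the Rb-depleted primary arrays, where the dimmest miRNA called detected had 4.18 and 3.38, and 17.7 to 69.5 on the secondary arrays. miR-152-3p was at 7.52 and 7.51 in control, 7.58 and 7.45 in Rb-depleted primary and 8.38, 8.004 and 8.72 in secondary cells. miR-148a-3p was at 6.57 and 6.92, at 6.65 and 6.74, and at 8.07, 7.58 and 8.76 in the same order. Both family members were higher on the 3 secondary arrays than on the 4 primary arrays and, like miR-143-3p, lowest within the secondary group in replicate 2. miR-101b-3p, whose family pairs with Ezh2 mRNA, was at 7.39 and 7.42, at 7.21 and 7.29, and at 7.81, 7.51 and 7.81. It shared with miR-143-3p the arrangement of Rb-depleted primary below and secondary above control. These miRNAs were chosen for their likeness to miR-143-3p over these same arrays, so a shared order of arrays follows in part from the choice. No test is attached to them.

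**Figure D5:**
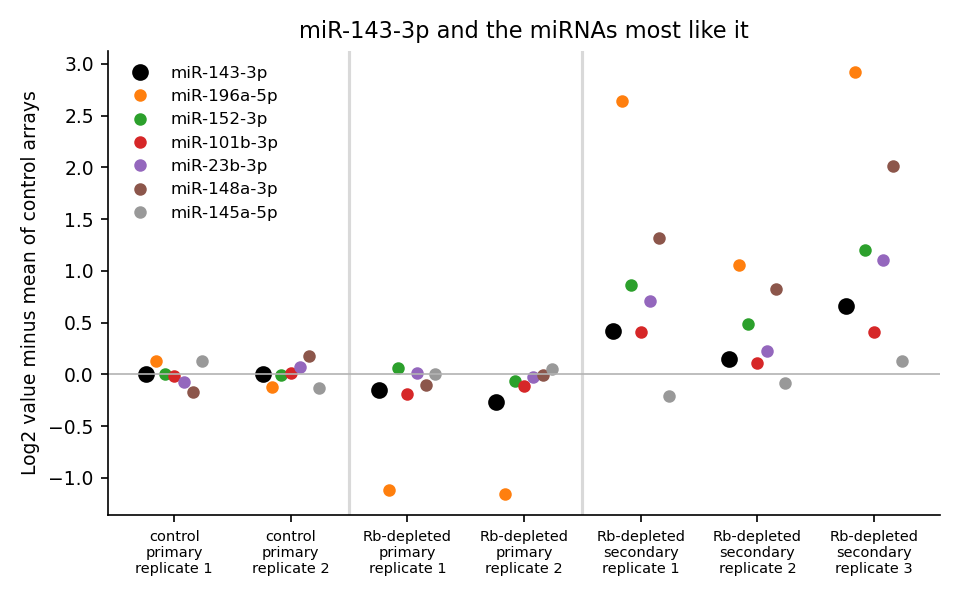
Deposited log2 values of miR-143-3p, the 5 miRNAs most correlated with it and miR-145a-5p on each array, each minus its own mean over the 2 control arrays. In miR-143-3p and each of these 5 miRNAs secondary replicate 2 is the lowest secondary array, and miR-145a-5p (grey) stays near 0 throughout. The 5 were chosen by correlation over these same arrays, so the shared order follows in part from that choice.

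The miRNAs most like miR-145a-5p were much less so, from miR-484 (r = 0.683) and miR-186-5p (0.646) to miR-669b-5p (0.635), miR-324-3p (0.566) and miR-103-3p (0.554). miR-484, the nearest, was at 5.78 and 5.72 in control, 5.95 and 6.04 in Rb-depleted primary and 5.52, 5.42 and 5.93 in secondary cells. Replicate 3 was the highest secondary array for both.

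Other miRNAs known from the switch between contractile and proliferating smooth muscle were counted in the same tests. Of 21 arms of this list on the array, 15 were detected on 7 of 7 arrays and 6 on 0. Among the 15 were arms of miR-21, miR-221, miR-222, miR-24, miR-26a, miR-31, miR-146a, miR-100 and let-7d. The 6 detected on 0 arrays were miR-1a-3p, miR-133a-3p, miR-133a-5p, miR-133b-3p, miR-204-5p and miR-10a-3p. Against control cells, 0 of 15 passed in Rb-depleted primary cells and 0 of 15 in secondary cells, with 0 and 1 at an unadjusted p under 0.05 by limma, in comparisons where 1.59% and 22.6% of the 252 miRNAs passed. In secondary against Rb-depleted primary cells, where 20.2% of the 252 passed, 1 of 15 did, miR-24-1-5p, the minor arm of a miR-24 hairpin, by 1.48 (SE 0.33, limma adjusted p = 0.0357). This arm was dim, at 8.09 to 17.6 intensity units, where the dimmest miRNA called detected had 3.38 to 5.37. It did not pass without normalization, with scaling to the 75th percentile or without moderation. Nor did it pass with slide or the replicate number in the model, or without secondary replicate 1 or 3. The call was kept with quantile normalization of the 252 miRNAs alone, with all mouse miRNAs and a floor, and without secondary replicate 2. The main product of that hairpin, miR-24-3p, differed by 0.00 (SE 0.09, limma adjusted p = 1.00). The medians of the 15 were -0.03, 0.08 and 0.05 in the 3 comparisons, beside 0.01, 0.03 and 0.02 over all 252 miRNAs. These counts moved with the processing. Without normalization 0 of 15 were higher and 7 lower in secondary than in control cells by limma. In that fit 114 of the 252 miRNAs passed, 5 of them higher. With slide as a term 0 of 15 passed in any of the 3 comparisons, where 0, 6 and 0 of the 252 did. Without secondary replicate 2, 74 of the 252 passed against control and 66 against Rb-depleted primary cells. Of the 15, 2 were then higher and 2 lower in secondary cells in either comparison. Without either Rb-depleted primary replicate, 2 were higher in secondary than in control cells.

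In the mesenchymal list, 5 of 15 arms were higher and 0 lower in secondary cells relative to Rb-depleted primary cells, beside 12.7% higher and 7.54% lower among the 252 miRNAs. The median of the list was 0.26, beside 0.02 over all. They were miR-199a-3p, by 0.60 (SE 0.08, limma adjusted p = 0.0146), miR-199a-5p, miR-199b-5p, miR-214-5p and miR-29b-3p. In the same list miR-29b-1-5p went the other way, by -0.55 (SE 0.17, limma adjusted p = 0.0702). It passed as lower when secondary replicate 2 was left out. The hairpin of miR-214 and a hairpin of miR-199a are cut from the transcript Dnm3os of connective tissue cells, and miR-29 lowers collagen mRNAs. Against control cells, 4 of 15 arms were higher in secondary cells (miR-199a-3p, miR-214-5p, miR-29a-5p and miR-29b-3p) and 2 lower (miR-140-3p and miR-140-5p, products of a cartilage hairpin), beside 13.1% higher and 9.52% lower among the 252. The median was 0.22, beside 0.03 over all. In Rb-depleted primary against control cells, where 1.19% of the 252 were lower, 1 of 15 was, miR-140-5p, by 0.67 (-0.67, SE 0.09, limma adjusted p = 0.0432), with a median of -0.04 over the list and 0.01 over all. With slide as a term 0 of 15 passed in each of the 3 comparisons, so all these calls were lost. In Rb-depleted primary against control, secondary against control and secondary against Rb-depleted primary cells, 0, 6 and 0 of the 252 then passed. Without normalization 0 of 15 were higher in any comparison. In secondary cells 3 of 15 were then lower than in control and 1 lower than in Rb-depleted primary cells. Over the 252, 114 passed against control (5 higher) and 45 against Rb-depleted primary cells (10 higher). With 1 array left out, 0 to 6 of 15 were higher in secondary than Rb-depleted primary cells, 0 of them without Rb-depleted primary replicate 2. Against control, 0 to 4 were higher and 0 to 2 lower in secondary cells, with 0 of either without control replicate 1 and 1 higher without control replicate 2, secondary replicate 1 or secondary replicate 3. miR-29b and miR-140 were also singled out by the study on these same arrays, so their directions are not independent evidence. The miR-143-3p difference of 0.62 between secondary and Rb-depleted primary cells was thus close in size to that of miR-199a-3p, with an SE of 0.16 beside 0.08.

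Haematopoietic and endothelial markers gave little signal, while a striated muscle arm and some neural arms were detected on all arrays. Of 7 haematopoietic arms, 6 were detected on 0 arrays, and miR-451a, a red cell miRNA, was detected on 1 of 7 (Rb-depleted primary replicate 2, at 8.81 intensity units). miR-126-3p, the defining endothelial miRNA, was detected on the 4 primary arrays at 7.02 to 10.73 and on 0 of the 3 secondary arrays. These signals were dim, as the dimmest miRNA called detected had 3.38 to 5.37. The secondary arrays also detected fewer miRNAs, 258, 276 and 283, against 284 to 287 on the primary arrays. How many other miRNAs were detected on the primary arrays only was not counted. Of 8 striated muscle arms only miR-206-3p was detected, at 27.8 to 47.0 in primary and 12.9 to 36.4 in secondary cells, and miR-1a, miR-133a, miR-133b, miR-208 and miR-499 were not. In the deposited values miR-206-3p passed no test. Its log2 difference was -0.67 between secondary and Rb-depleted primary cells (SE 0.44, limma adjusted p = 0.315). Between secondary and control cells it was -0.78 (SE 0.44, limma adjusted p = 0.254). Without normalization miR-206-3p passed as lower in secondary than control cells, as 114 of the 252 miRNAs passed. Without secondary replicate 2 it passed as lower in secondary cells in both comparisons, where 74 and 66 of the 252 passed. Of 6 neural arms, 3 were detected on 7 of 7 arrays (miR-9-3p, miR-9-5p and miR-128-3p), with a summed signal of 127 to 220.2 in primary and 96.6 to 166 in secondary cells, and 0 of them passed a test. The part of these miRNAs in the values of the cluster was not tested.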

How the data were processed

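Total RNA of 7 cell preparations was labelled and hybridized to Agilent mouse miRNA arrays. The authors deposited the scanner's output, with the intensity of each spot and miRNA and a detection call (0 or 1), made with Agilent Feature Extraction (10.7.3.1 in the submitters' processing notes, 11.0.1.1 per the file headers). They also deposited log2 values, quantile-normalized with GeneSpring GX, for 252 mouse miRNAs and 11 control features, the latter left out here. Table names are older than those of the scanner files, and each was linked to the feature with identical ranks on all arrays. Quantile normalization forces the arrays to a common distribution, so a shift of all miRNAs is removed and ties between replicates arise.

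Groups were taken from the labels. The deposited log2 values of all 7 arrays entered 1 model of 3 group means in limma 3.58.1 in R 4.3.3, with moderated tests and Benjamini-Hochberg adjustment over 252 miRNAs (thresholds of 0.1 for the F-test and 0.05 for pairs of groups). The gap within arrays was compared by exact permutation tests in scipy 1.17.1 (Python 3.11.15). Loci came from GENCODE on NCBIM37, and mature sequences from RefSeq. All arms of the hairpins are named, with the 5 miRNAs most correlated with each quantified arm and those members of the lists that passed a test or define a cell type. Members and lists were chosen with earlier results of these data known. Comparisons share control and Rb-depleted primary arrays. The alternatives were no normalization, scaling to the 75th percentile, quantile normalization of the 252 miRNAs alone, every mouse miRNA detected on at least 1 array with a floor of 1 (312 miRNAs), no moderation, Dunnett's adjustment, the replicate number as a block, slide as a term, each array left out in turn and, added after seeing the data, single probes. Scripts were tested on simulated data. The number of arrays limits the precision. Other experiments of the study were not used here.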

Additional observations from a re-analysis of the deposited data

Results flagged for a closer look

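The change of miR-143-3p from control cells differed between secondary and primary Rb-depleted cells by 0.62 on the log2 scale (limma adjusted p = 0.0465), being -0.21 in Rb-depleted primary and 0.41 in secondary cells. Neither change alone passed its test. The control values cancel in this difference, so it is the comparison of secondary with Rb-depleted primary cells given above and not a further result.

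The gap between miR-143-3p and miR-145a-5p within an array was below both control arrays in the Rb-depleted primary cells and above both in the secondary cells in the deposited values, a difference of 0.70 between the group means (exact permutation p = 0.1, the smallest this test allows with these arrays). Without normalization, Rb-depleted primary replicate 1 lay between the control arrays and the difference was 0.51.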

How the results depend on the processing

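miR-143-3p had the same direction between secondary and Rb-depleted primary cells in 14 of 14 alternatives but kept its call in 2, quantile normalization of the table alone (0.61, limma adjusted p = 0.0393) and leaving out secondary replicate 2. Its difference and limma adjusted p were 0.55 and 0.146 with scaling to the 75th percentile, 0.33 and 0.251 without normalization, 0.61 and 0.0616 with all mouse miRNAs and a floor, 0.62 and 0.0949 without moderation, 0.63 and 0.186 with slide as a term, and 0.49 to 0.75 and 0.0194 to 0.206 with an array left out. Its F-test gave an adjusted p of 0.221, 0.230, 0.133 and 0.230 with scaling, without normalization, without moderation and with slide, and 0.0257 to 0.189 with an array left out. Against control, its secondary cells differed by -0.088 without normalization and by 0.29 to 0.54 with an array left out, passing only without secondary replicate 2. For miR-145a-5p, Rb-depleted primary minus control was -0.087 with scaling, -0.32 without normalization and -0.11 to 0.16 with an array left out. Its secondary minus Rb-depleted primary difference was 0.036 with scaling, and its secondary minus control difference -0.50 without normalization (limma adjusted p = 0.0329, F-test 0.0679) and -0.19 to 0.081 with an array left out, turning positive without control replicate 1 (0.081) or secondary replicate 1 (0.024). In each of these the cause was not tested. Where 1 array was left in a group, it is assumed to vary like the others. The within-array gap kept its direction in every alternative run, at 0.62 to 0.81 between secondary and Rb-depleted primary, 0.33 to 0.60 between secondary and control and -0.37 to -0.10 between Rb-depleted primary and control cells with an array left out.

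Over the 252 miRNAs the F-test passed 109, and 62 without moderation, 24 with slide and 33 to 124 with an array left out. Between Rb-depleted primary and control cells 4 passed, and 27 without normalization, 8 with a floor and 0 to 22 with an array left out, with 0 under scaling and 0 with slide (42 and 62 at an unadjusted p under 0.05 by limma). Between secondary and control cells 57 passed, and 29 with scaling, 114 without normalization, 34 without moderation, 6 with slide and 1 to 74 with an array left out. Between secondary and Rb-depleted primary cells 51 passed, and 15 without moderation, 0 with slide (67 at an unadjusted p under 0.05 by limma) and 2 to 66 with an array left out.

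Correlations between the deviations of same-numbered arrays from their group means were -0.14 to 0.13. In a group of 2 arrays the deviations mirror each other, so these values cannot show whether the replicate numbers pair the arrays. With the replicate number as a block, secondary replicate 3 has no partner and drops out of the comparison. The F-test then passed 6 miRNAs and the 3 pairs of groups 0, 4 and 0 (44, 68 and 68 at an unadjusted p under 0.05 by limma), and miR-143-3p had an F-test adjusted p of 0.164 and differed by 0.49 between secondary and Rb-depleted primary cells (limma adjusted p = 0.114).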
